A study of Mus musculus with 2 samples.

Results

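The genes described here are 40 genes of mitosis and chromosome segregation, measured in double-positive (DP) thymocytes with and without Bcl11b. They were taken from a named list by gene symbol, by current symbol of the probe's accession, or by an older synonym, as for Cdk1, which the array calls Cdc2a. All 40 were on the array, with 72 probes, and all 40 were among the 14923 genes tested. For this description they were divided by role into kinases and cyclins (7 genes), the spindle checkpoint (5), proteolysis at anaphase (4), the chromosomal passenger complex (3), kinesins (7), other spindle and centromere proteins (5), cytokinesis (3), and condensin and chromosome structure (6).

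Each of 2 mouse 2-colour arrays held RNA of Bcl11bF/FCD4Cre/Tcra-/- thymocytes in Cy5 and RNA of TCRa-/- thymocytes in Cy3, and the labels call the arrays biological replicates 1 and 2. Both groups lack Tcra, so neither can form an alpha beta T cell receptor and both stop before positive selection. In the deficient group a floxed Bcl11b, which encodes a zinc finger factor of T lineage cells, is the target of CD4Cre, a Cre under the control of Cd4 regulatory sequences. The mice had no treatment. No Cre is named in the control genotype, so an effect of Cre and an effect of losing Bcl11b cannot be told apart, and with no dye-swapped array neither can dye and genotype. The number of mice per sample, their age and the way DP cells were obtained are not given in the sources used here. Both arrays are blocks of 1 slide with 1 scan, so no batch could be tested.

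Mitosis begins when cyclin-dependent kinase 1, bound to its cyclins, brings about condensation of chromosomes and assembly of the spindle. The spindle checkpoint holds back the anaphase-promoting complex until every chromosome is attached, after which that ubiquitin ligase marks securin and cyclins for destruction and separase cuts cohesin. Aurora B with its chromosomal passenger partners corrects attachments, and kinesins, Prc1, Ect2 and anillin build the midzone and the contractile ring. In the thymus such genes are highest in the dividing cells that lead into the DP stage, while most DP cells are small and do not divide.

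In the whole data set, between 50.5% and 56.5% of the spots that were not controls stood well above background, over the 4 channels. Ratios were background-corrected and loess-normalised within each array, and are log2 of deficient over control, so a positive ratio means a higher signal in the deficient cells. Means are given ± SE as moderated by limma (n = 2 arrays), and the median over all genes tested was -0.00. At an adjusted p threshold of 0.05, limma's moderated test of the mean ratio called 0 genes, although 4361 (29.2%) had an unadjusted p under 0.05. A limma fit of the separate channels, with the array as a block, called 1281 genes, of which 709 were higher. The 10 markers of the DP stage, among them Cd4, Cd8a, Cd8b1 and Rag1, were well above background in all 4 channels.

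Mitosis genes read mostly higher in the Bcl11b-deficient cells, by small factors. Of the 40 genes, 31 had a positive log2 ratio on both arrays, while 36.4% of all genes tested did so. Only Ube2c was lower on both, against 38.5% of all genes, and 8 genes had opposite signs, against 25.1% of all genes, namely Ccnb1, Bub3, Mad2l1, Kif11, Nusap1, Racgap1, Smc2 and Top2a. The median log2 ratio over the members was 0.40, from 0.35 on replicate 1 and 0.49 on replicate 2. All 40 were well above background in every channel, so the filter on dim probes removed none of them.

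No member passed limma's test of the 2 ratios, where adjusted p ranged from 0.0711 to 0.894. An unadjusted p under 0.05 was reached by 26 members, all of them higher, against 15.1% of all genes with such a p and a higher mean and 14.1% with a lower one. The separate-channel fit called 11 members, all higher, where it called 4.75% of all genes as higher and 3.83% as lower. These were Smc4, Birc5, Cenpe, Incenp, Aurka, Prc1, Cenpf, Mki67, Ccnb2, Ect2 and Bub1b, with adjusted p from 0.0195 for Smc4 to 0.0499 for Bub1b. With arrays centred on their median and no loess, 16 members were called, all higher, beside 5.92% of all genes called as higher and 0.704% as lower. That scaling moved the median of all genes to 0.13 and that of the members to 0.71. With the processed signals of the scanner software, which carry their own dye normalisation, no member was called, nor with the deposited value table. The processed signals gave 0.496% of all genes as higher and 0.382% as lower, and the value table gave 0.147% and 0.0402%. Because these are bulk samples, more dividing cells and more mitotic RNA in each cell cannot be told apart.

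**Figure D1:**
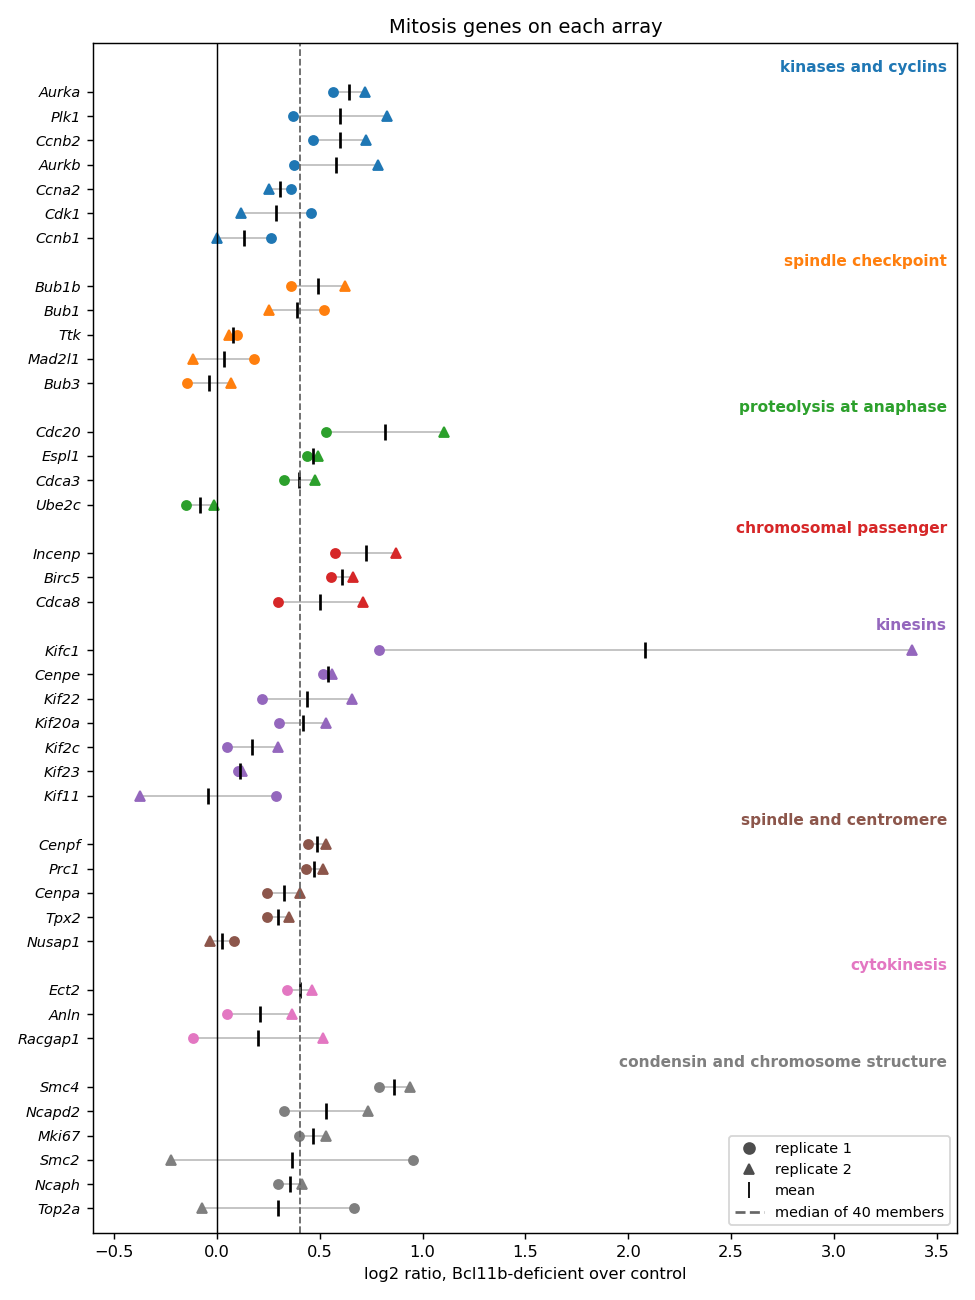
Log2 ratio of Bcl11b-deficient over control (horizontal axis) for each of the 40 mitosis genes, grouped by role; circles are replicate 1, triangles replicate 2, short bars the mean, and the dashed line the members' median of 0.40. Most pairs of points lie to the right of 0. The means of the checkpoint genes Bub3, Mad2l1 and Ttk lie near it, those of Bub1 and Bub1b do not. Kifc1, Smc2, Kif11 and Top2a show the widest gaps between arrays.

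Promoter sequences are shown for members at both ends of the range, because many mitotic genes are known to share a pair of short elements, the cell cycle genes homology region bound by the DREAM and MuvB complexes and CCAAT boxes bound by NF-Y. The windows run from 250 bases before to 50 bases after the RefSeq start on GRCm38.p6, written 5′ to 3′ on the gene's strand, and those shown are the 5 highest and the 2 lowest members with an entry, leaving out Kifc1. Capitals mark TTTGAA and the letters CCAAT. A match on the opposite strand appears as TTCAAA for the first motif and as ATTGG for the second.
Cdc20, chr4:118437294-118437593, minus strand: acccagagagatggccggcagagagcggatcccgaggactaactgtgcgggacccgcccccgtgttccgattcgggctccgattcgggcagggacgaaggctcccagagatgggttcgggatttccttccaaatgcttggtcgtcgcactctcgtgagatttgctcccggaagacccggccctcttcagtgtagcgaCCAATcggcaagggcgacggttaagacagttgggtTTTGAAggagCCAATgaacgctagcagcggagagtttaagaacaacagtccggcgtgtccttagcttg
Aurka, chr2:172370521-172370820, minus strand: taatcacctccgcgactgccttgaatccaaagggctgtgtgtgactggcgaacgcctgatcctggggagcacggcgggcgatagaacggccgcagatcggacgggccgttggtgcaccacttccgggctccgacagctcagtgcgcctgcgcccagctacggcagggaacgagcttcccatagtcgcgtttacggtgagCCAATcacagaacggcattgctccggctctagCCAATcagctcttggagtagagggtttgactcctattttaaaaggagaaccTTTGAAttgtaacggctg
Plk1, chr7:122159185-122159484, plus strand: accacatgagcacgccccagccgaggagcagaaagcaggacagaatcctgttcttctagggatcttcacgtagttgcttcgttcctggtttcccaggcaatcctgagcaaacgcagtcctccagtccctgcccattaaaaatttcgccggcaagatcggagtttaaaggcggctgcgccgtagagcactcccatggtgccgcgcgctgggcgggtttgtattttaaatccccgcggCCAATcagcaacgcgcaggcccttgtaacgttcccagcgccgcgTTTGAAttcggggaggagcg
Birc5, chr11:117848987-117849286, plus strand: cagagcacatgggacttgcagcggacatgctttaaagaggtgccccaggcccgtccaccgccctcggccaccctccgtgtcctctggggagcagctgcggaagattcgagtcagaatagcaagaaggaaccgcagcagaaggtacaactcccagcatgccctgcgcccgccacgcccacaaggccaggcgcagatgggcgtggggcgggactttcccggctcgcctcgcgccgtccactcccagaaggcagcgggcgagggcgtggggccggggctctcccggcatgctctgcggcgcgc
Ccnb2, chr9:70421505-70421804, minus strand: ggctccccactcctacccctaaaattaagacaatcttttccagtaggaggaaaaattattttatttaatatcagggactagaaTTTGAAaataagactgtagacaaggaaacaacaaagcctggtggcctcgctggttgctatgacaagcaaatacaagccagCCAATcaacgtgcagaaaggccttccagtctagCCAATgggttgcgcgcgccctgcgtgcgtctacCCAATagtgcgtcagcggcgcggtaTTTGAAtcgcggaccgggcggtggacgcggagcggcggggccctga
Kif11, chr19:37376132-37376431, plus strand: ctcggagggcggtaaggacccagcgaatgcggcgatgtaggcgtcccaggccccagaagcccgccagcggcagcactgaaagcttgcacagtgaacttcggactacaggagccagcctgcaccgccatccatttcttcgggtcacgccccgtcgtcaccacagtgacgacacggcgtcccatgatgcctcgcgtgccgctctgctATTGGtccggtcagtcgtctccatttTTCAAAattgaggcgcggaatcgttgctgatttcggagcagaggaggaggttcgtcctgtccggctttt
Ube2c, chr2:164769679-164769978, plus strand: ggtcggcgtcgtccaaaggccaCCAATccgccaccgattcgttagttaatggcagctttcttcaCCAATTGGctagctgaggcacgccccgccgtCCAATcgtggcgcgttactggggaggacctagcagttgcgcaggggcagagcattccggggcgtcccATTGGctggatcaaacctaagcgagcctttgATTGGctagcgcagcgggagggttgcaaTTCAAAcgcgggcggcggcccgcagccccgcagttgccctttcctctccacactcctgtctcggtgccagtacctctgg

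In Cdc20, the TTTGAA begins at position -18 from the start, between CCAAT letters at -53 and -8. Aurka and Plk1 have it downstream of the start, at 33 and 31, after CCAAT at -51 and -19 in Aurka and at -14 in Plk1. Ccnb2 holds 3 CCAAT and 2 TTTGAA, and the Birc5 window holds neither. The 2 lowest members with an entry carry the same letters, since Kif11 has 1 of each and Ube2c has 6 CCAAT, of which 2 overlap on opposite strands, and 1 TTTGAA. The letters thus occur at both ends of the range of ratios.

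Promoter windows were given for 34 of the 40 members. The names without one are Ccna2, Aurkb, Kif20a, Incenp, Tpx2 and Smc4. TTTGAA or the palindrome TTCGAA, on either strand, was found in 28 of the 34 (82.4%), against 21.7% of 27025 genes with windows of the same length of 300 bases. CCAAT on either strand was found in 28 (82.4%) against 41.1%, and 19 (55.9%) held 2 or more against 13.3%. Both kinds of letters occurred in 26 members (76.5%) against 9.65% of genes. The median log2 ratio was 0.40 for the 28 members with TTTGAA or TTCGAA and 0.24 for the 6 without. These 6 are Birc5, Ccnb1, Cenpe, Mad2l1, Ncaph and Nusap1, and their means ran from 0.02 to 0.61. A match of letters is a description of the window, not a bound site.

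The kinases and cyclins had a median log2 ratio of 0.58 (0.37 on replicate 1 and 0.72 on replicate 2), and 6 of 7 read higher on both arrays. Aurka, the kinase of centrosome maturation and spindle poles, had processed signals (scanner intensity after the software's background and dye correction) of 9233 and 10587 in the deficient cells (replicate 1, then replicate 2, as in all pairs of values here) against 6169 and 6421 in the control cells. Both deficient samples thus lay above both control samples. How many of all genes showed such separation was not counted, for this gene or those below. Overlap of groups also sets channels of different arrays side by side without their pairing, so it is a description only. The log2 ratios were 0.56 and 0.72 (0.64 ± 0.08, limma adjusted p = 0.0797), and the separate-channel fit called it at an adjusted p of 0.0335. Plk1, the polo-like kinase that acts from entry into mitosis to cytokinesis, read 6889.9 and 7525 against 5270.0 and 4183, again with no overlap. Its ratios differed more between arrays, at 0.37 and 0.82 (0.60 ± 0.14, adjusted p = 0.113), and the gap came mostly from the control channel.

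The B-type cyclins gave unlike ratios. Ccnb2, one of the B-type cyclins that activate Cdk1, had ratios of 0.47 and 0.72 (0.60 ± 0.10) and was called by the separate-channel fit (adjusted p = 0.0403). Ccnb1, the main mitotic cyclin, had processed signals of 3032 and 3207 in deficient cells and 2426 and 3209 in control cells. Its groups overlapped, since replicate 2 gave the same level in both channels, and its ratios were 0.26 and -0.00 (0.13 ± 0.10, adjusted p = 0.428). Cdk1 itself, the kinase that drives entry into mitosis, read 2021 and 3132 against 1459.95 and 2937. Its groups overlapped as well, because both channels were brighter on replicate 2, while within each array the deficient signal was the higher one (0.46 and 0.12, mean 0.29 ± 0.12). Ccna2, the S phase and G2 cyclin, stood at 0.31 ± 0.08, and Aurkb, the kinase of the chromosomal passenger complex, at 0.58 ± 0.13, each positive on both arrays. The other 2 kept probes of Ccnb1 were positive on both arrays, at 0.30 and 0.12 and at 0.41 and 0.15, and the mean of its probes was 0.21. The difference between Ccnb1 and Ccnb2 was not tested.

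Spindle checkpoint genes had a median of 0.08, the lowest of the roles in the mean of the arrays, and 3 of 5 were higher on both arrays. Their median was 0.18 on replicate 1, where the cytokinesis genes stood lower at 0.05, and 0.07 on replicate 2. Bub1b, which encodes BubR1 of the mitotic checkpoint complex, had processed signals of 1586 and 1820.2 in deficient cells and 1233 and 1179 in control cells. The groups did not overlap, the ratios were 0.36 and 0.62 (0.49 ± 0.10, adjusted p = 0.100), and the separate-channel fit called it only just (adjusted p = 0.0499). Bub1, the kinetochore kinase, read 2242 and 2283 against 1545 and 1975, also without overlap, with ratios of 0.52 and 0.26 (0.39 ± 0.10).

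The other 3 checkpoint genes lay near 0. Bub3, the WD repeat partner of Bub1 and BubR1, read 12630.2 and 13918 in deficient cells and 14276 and 13804.5 in control cells. Its groups overlapped, with ratios of -0.15 and 0.07 (-0.04 ± 0.09, adjusted p = 0.786), and its sign turned under other settings, to 0.48 with median centring and 0.03 with the mean of its 4 kept probes. Mad2l1, which encodes the checkpoint protein Mad2, read 2453 and 2614 against 2117 and 2861, and its ratios of 0.18 and -0.11 had opposite signs (0.03 ± 0.11). Its other kept probe gave 0.29 and 0.05, and the mean of both probes was 0.10. Ttk, the Mps1 kinase at the top of the checkpoint, gave 0.10 and 0.06 (0.08 ± 0.07), and its processed signals were dim, at 96.3 to 132. Whether the checkpoint genes differ from the other roles was not tested.

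Proteolysis at anaphase, with a median of 0.43, held both the lowest member and one of the highest, and 3 of its 4 genes were higher on both arrays. Cdc20, the activator of the anaphase-promoting complex and the target of the checkpoint, had processed signals of 25261 and 27042 in deficient cells and 20131 and 13914 in control cells. All deficient values exceeded the control values, and the ratios were 0.53 and 1.11 (0.82 ± 0.17, adjusted p = 0.102). The deficient signals were alike on the arrays, and the control signal of replicate 2 was well below that of replicate 1. Ube2c, the ubiquitin-conjugating enzyme that works with the same complex, read 9549 and 8488 against 10538 and 8367. Its groups overlapped, and its ratios of -0.15 and -0.01 (-0.08 ± 0.08, adjusted p = 0.519) were both below 0, which median centring turned to 0.32.

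Espl1, which encodes separase, had processed signals of 1151 and 1049 against 765 and 649.8 in control cells. Cdca3, a cofactor in the destruction of the Wee1 kinase, was grouped here only as a proteolysis gene. It had processed signals of 11013 and 12559.5 against 8962 and 9221. Neither gene's groups overlapped. The means were 0.47 ± 0.07 for Espl1 (adjusted p = 0.0847) and 0.40 ± 0.08 for Cdca3 (adjusted p = 0.100). The arrays gave nearly the same ratio for Espl1, 0.44 and 0.49. The other kept probe of Cdca3 gave 0.19 and 0.21, and the mean of both probes was 0.30.

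Chromosomal passenger genes had a median of 0.61, and all 3 were higher on both arrays. With processed signals their median was 0.47, below the 0.53 of kinases and cyclins and the 0.51 of proteolysis genes, so they hold no fixed rank among the roles. Birc5, which encodes survivin, had processed signals of 24051 and 23104 in deficient cells and 18076 and 16162 in control cells. Incenp, the scaffold of the complex, had 18386 and 17896 against 13016 and 10190.2. Cdca8, which encodes borealin, had 16407.5 and 16317 against 13894 and 10023. In each of them the groups were apart, and the deficient signals were alike on the arrays.

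The mean ratio of Incenp was 0.72 ± 0.11 (0.58 and 0.87), that of Birc5 0.61 ± 0.08 (0.56 and 0.66), and that of Cdca8 0.50 ± 0.13 (0.30 and 0.71). Limma's adjusted p was 0.0847 for Incenp, 0.0782 for Birc5 and 0.125 for Cdca8. In the separate-channel fit Birc5 (adjusted p = 0.0245) and Incenp (0.0332) were called, while Cdca8 and the complex's kinase gene Aurkb were called in neither fit.

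The kinesins had a median of 0.42, and 6 of 7 were higher on both arrays. Kifc1, a minus-end motor that bundles spindle microtubules, had processed signals of 2978 and 5305 in deficient cells and 1663 and 399 in control cells. The groups were far apart and the ratios were 0.79 and 3.38 (2.08 ± 0.70, adjusted p = 0.167), the largest mean and the widest gap between arrays among the members. The low control signal of replicate 2 made most of that gap.

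This value cannot be assigned to Kifc1 alone. The only probe of that name lies at chr17:26659711-26659763 in the mm8 coordinates of the array, after the probe of Nkx2-5 and before those of Phf1 and Cuta. In the RefSeq gene order of GRCm38.p6, the gene between Nkx2-5 and Phf1 is Kifc5b, a close relative, whereas Kifc1 lies between Cd320 and Smim40, followed by Daxx. The array's Cd320 and Daxx probes lie far away on the same chromosome, the Cd320 probe ending at 33454271 and the Daxx probe starting at 33525913. The array's own Kifc5b probe, at chr17:26653488-26653867, gave ratios of 0.73 and 3.32, close to those of the Kifc1 probe. Without Kifc1, 30 of 39 members were higher on both arrays and the median stayed at 0.40.

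Cenpe, the kinetochore kinesin that carries chromosomes to the spindle equator, had processed signals of 17225.5 and 15855 in deficient cells and 12713 and 11226 in control cells. Its groups were apart, its ratios were nearly equal at 0.52 and 0.56 (0.54 ± 0.07, adjusted p = 0.0815), and the separate-channel fit called it (adjusted p = 0.0292). Kif11, the motor known as Eg5 that separates the spindle poles, read 1498 and 1040.5 against 1194 and 1429. The arrays went opposite ways, 0.29 and -0.37 (-0.04 ± 0.19, adjusted p = 0.894), and median centring gave 0.15. Kif23, the motor of the centralspindlin complex, read 1488 and 1472 against 1377 and 1323. Its deficient values were just above the control values, with a mean of 0.11 ± 0.07. The other kinesins were positive on both arrays, namely Kif22, a chromosome arm motor (0.44 ± 0.14; 0.26 after centring by brightness), Kif20a, which acts at the midzone (0.42 ± 0.09), and Kif2c, which takes microtubules apart at centromeres (0.17 ± 0.10).

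Among other spindle and centromere proteins the median was 0.32, and 4 of 5 were higher on both arrays. Cenpf, a large kinetochore protein of G2 and M phase, had processed signals of 6779.6 and 6409.8 in deficient cells and 4875 and 4304 in control cells. Prc1, which bundles antiparallel microtubules at the midzone, had 12518 and 12642 against 9175 and 8623. Both genes had separate groups and close ratios, with means of 0.49 ± 0.07 for Cenpf and 0.47 ± 0.07 for Prc1, and both were called by the separate-channel fit (adjusted p = 0.0392 and 0.0348).

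The other kept probe of Cenpf, 956 bases further 3′ in the genome, gave 0.04 and -0.01, and the mean of both was 0.25. That probe was dim, with processed signals of 59.6 and 51.6 in deficient cells and 58.8 and 56.6 in control cells. The difference between the probes was not tested. Tpx2, the spindle assembly factor that activates Aurora A, had processed signals of 3781 on both arrays in deficient cells and 3074 and 2944 in control cells. Its deficient signals were above the controls on both arrays (0.29 ± 0.08, adjusted p = 0.122). Nusap1, a microtubule-binding protein of the spindle, read 6774 and 7245 against 6220.3 and 7378 and overlapped, with ratios of 0.08 and -0.03 (0.02 ± 0.08). Cenpa, the histone H3 variant of centromeres, had ratios of 0.24 and 0.40 (0.32 ± 0.08).

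The cytokinesis genes had a median of 0.21, and 2 of 3 were higher on both arrays. That median was 0.05 on replicate 1, 0.46 on replicate 2 and 0.37 with processed signals. Ect2, the exchange factor that activates RhoA at the cell equator, had processed signals of 5737 and 5643 in deficient cells and 4499.7 and 4049.7 in control cells. It had the steadiest ratios of the 3, 0.34 and 0.46 (0.40 ± 0.08, adjusted p = 0.0959), and was called by the separate-channel fit (adjusted p = 0.0448). Anln, which encodes anillin of the contractile ring, was dim, at 162 and 189.97 against 158 and 116, with ratios of 0.05 and 0.37 (0.21 ± 0.11). Racgap1, the partner of Kif23 in centralspindlin, read 702 and 976 against 773 and 674. Its groups overlapped and its ratios were -0.12 and 0.52 (0.20 ± 0.18). Its other kept probe, nearer the 5′ end, gave 0.43 and 0.23. Processed signals of that probe were 345 and 335 against 218 and 267, without overlap. Neither Racgap1 nor Kif23 was called in either fit.

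Condensin and chromosome structure genes had a median of 0.41, and 4 of 6 were higher on both arrays. Smc4, an ATPase subunit of both condensins, had processed signals of 21954 and 22309 in deficient cells and 13947 and 11873 in control cells. The groups were well apart, the ratios were 0.79 and 0.94 (0.86 ± 0.08), and both the limma adjusted p of 0.0711 and the separate-channel adjusted p of 0.0195 were the lowest among the members. Its probe lies at chr3:69122460-69122519 (mm8). Smc2, the ATPase that pairs with Smc4, showed no such closeness between arrays. Its ratios were 0.95 and -0.22 (0.36 ± 0.32, adjusted p = 0.487), and its processed signals were 2024 and 1451 against 996 and 1803.

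Ncapd2, a HEAT repeat subunit of condensin I, had processed signals of 22853 and 21669 against 20851 and 14318, without overlap, and ratios of 0.32 and 0.73 (0.53 ± 0.13, adjusted p = 0.119). The mean of its 3 kept probes was 0.31. Ncaph, the kleisin that closes the condensin I ring, had 739 and 846 against 547 and 548, also without overlap, and ratios of 0.30 and 0.41 (0.36 ± 0.08, adjusted p = 0.105). Top2a, the topoisomerase that untangles sister DNA, read 3726 and 2663 against 2257 and 2868.5. Its groups overlapped, and replicate 1 gave 0.67 where replicate 2 gave -0.07 (0.30 ± 0.21, adjusted p = 0.402). Mki67, which encodes the Ki-67 protein that coats mitotic chromosomes, stood at 0.40 and 0.53 (0.47 ± 0.08; 0.28 with processed signals) and was called by the separate-channel fit (adjusted p = 0.0394).

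**Figure D2:**
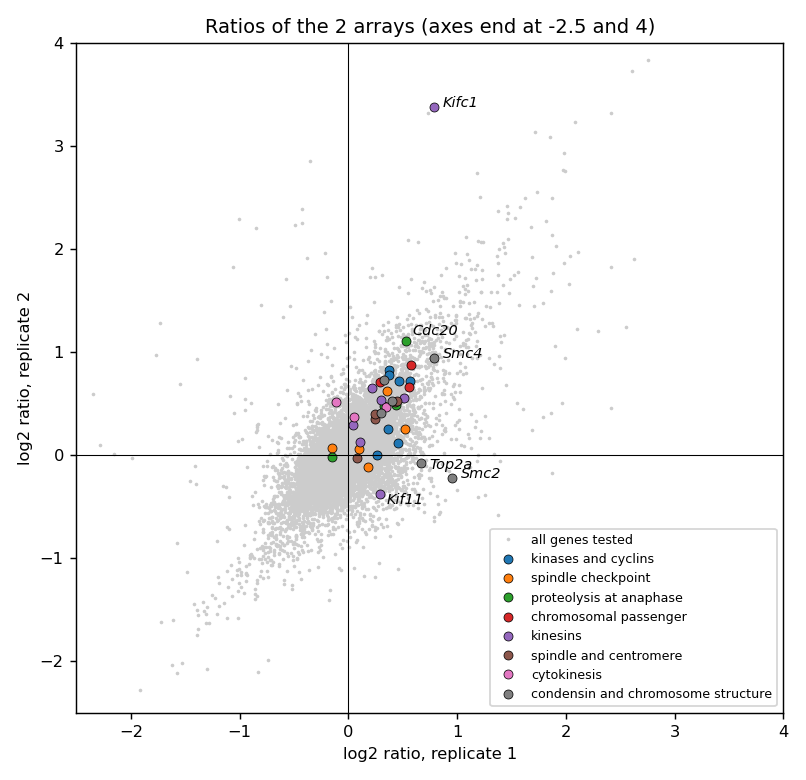
Log2 ratio on replicate 1 (horizontal axis) against replicate 2 (vertical axis) for all genes tested (grey) and the 40 members (coloured by role), with axes ending at -2.5 and 4. Most members lie in the upper right part of the plot while all genes centre on 0; Kifc1 at 0.79 and 3.38 stands far above the rest, and Smc2, Top2a and Kif11 lie below 0 on replicate 2 only.

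The gap between arrays went with the place of the probe along the transcript in many members, as it did in most genes. In 16 members with 2 or more kept probes, the difference of replicate 1 minus replicate 2 was compared between the probe nearest the 5′ end and that nearest the 3′ end, with the direction taken from the strand in the array files. It was larger at the 5′ probe in 12 of 16, and in 11 of 12 where the probes were over 1000 bases apart in the genome, against 66.7% of 4659 genes and 70.2% of 3636 genes. Among members over 1000 bases apart the median gap was 0.55, against 0.14 in all genes. This was examined after the ratios had been seen, and the genes share the same 4 labelled samples.

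In Smc2 the 5′ probe, which stood for the gene, gave 0.95 and -0.22, whereas the 3′ probe, 35864 bases away, gave 0.15 and 0.23. In Smc4 the 5′ probe gave 0.97 and 0.19, against 0.79 and 0.94 at the 3′ probe. Mki67 had 0.72 and 0.22 at the 5′ probe and 0.40 and 0.53 at the 3′ probe, and Cdca8 had 0.86 and 0.30 against 0.30 and 0.71. In these 4 genes replicate 1 was the higher array at the 5′ probe and replicate 2 at the 3′ probe. Top2a differed at both ends, with 1.18 and -0.13 at the 5′ probe and 0.67 and -0.07 at the 3′ probe. Its other kept probe, which lies between them, gave 0.27 on both arrays. That probe was dim, with processed signals of 110 and 118 against 70.4 and 78.1. Ect2 went the other way, with 0.28 and 0.54 at the 5′ probe and 0.34 and 0.46 at the 3′ probe, where replicate 2 was higher at both. Its 5′ probe, however, was not well above background in the control channel on either array (processed signal 34.8 on each). That was also so for the 5′ probe of Bub3 (39.6 and 56.0), which counted among the members with the larger difference at the 5′ probe. Split by channel, the shift of replicate 1 against replicate 2 from the 3′ to the 5′ probe was mostly in the control channel. Among members with probes over 1000 bases apart, its medians were 0.09 in the deficient channel and -0.36 in the control channel. The deficient part was largest in Smc4 and Smc2. In Smc4 the shift was 0.87 in the deficient channel and -0.07 in the control channel, and in Smc2 it was 0.70 and -0.55. In Top2a it lay in the control channel (-0.02 deficient, -0.59 control), as it mostly did in Mki67 (0.19 and -0.45). Over the 1537 genes with probes more than 10000 bases apart the medians were -0.01 in the deficient channel and -0.21 in the control channel.

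With the kept probe nearest the 3′ end standing for each gene, a choice made after seeing the data, 5 members changed probe. The members' median remained 0.40, and 33 of 40 were higher on both arrays, while all genes had a median of 0.00.

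**Figure D3:**
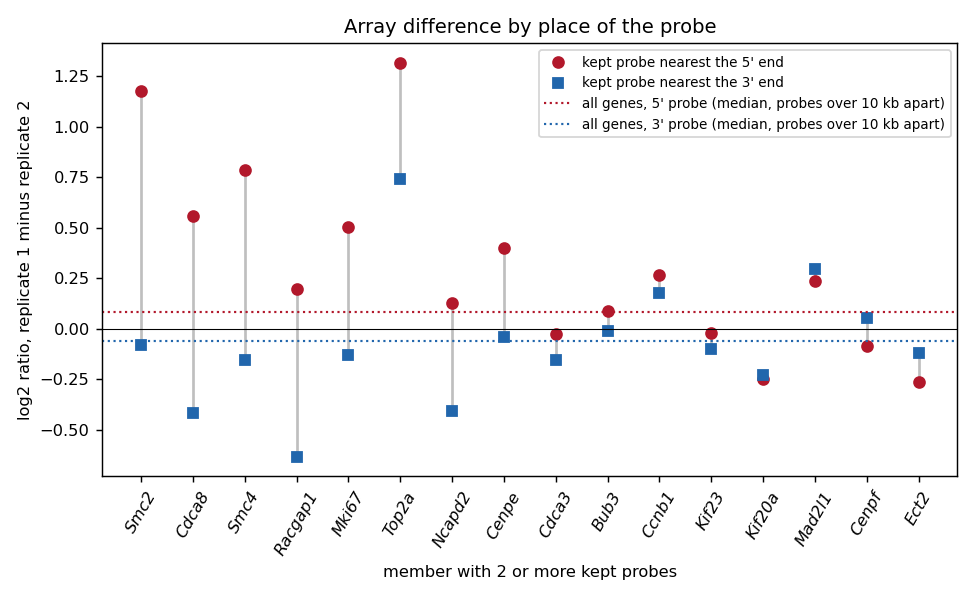
Log2 ratio of replicate 1 minus replicate 2 (vertical axis) at the kept probe nearest the 5′ end (circles) and the 3′ end (squares) of 16 members with 2 or more kept probes; dotted lines are medians over all genes with probes over 10 kb apart. The circle lies above the square in 12 of 16 members, by 1.26 in Smc2.

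Brightness moved with the ratio at the top of the scale. Genes with a mean log2 intensity from 15 upward had a median ratio of 0.11 over all 892 such genes, and 13 members lay in that range with a median of 0.53, among them Smc4, Cdc20, Incenp, Birc5 and Cenpe. From 13 to 15 all genes had a median of -0.04 and the 12 members 0.35, and from 11 to 13 the medians were 0.01 and 0.34 (12 members). Under 11 the 3 members Ttk, Anln and Ncaph had a median of 0.21 against -0.01. After the running median of genes of like brightness was taken off on each array, the members' median was 0.38 and 32 were higher on both arrays.

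**Figure D4:**
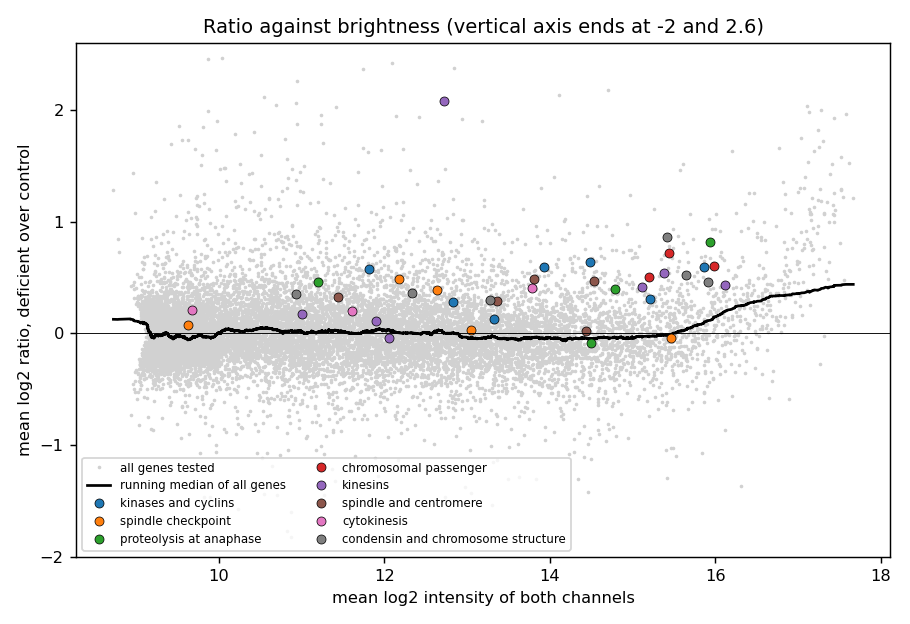
Mean log2 ratio (vertical axis) against mean log2 intensity of both channels (horizontal axis) for all genes tested (grey) and members by role; the black line is the running median of all genes. The line stays near 0 up to an intensity of about 15 and rises beyond, and most members lie above it along its whole length.

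A further list of 120 mitosis genes, of which 118 were tested, read higher by less. On both arrays 78 were higher and 13 lower, against 36.4% and 38.5% of all genes, and the median was 0.24. The separate-channel fit called 17, of which 16 were higher and 1, Mad1l1, was lower, where it called 4.75% of all genes as higher and 3.83% as lower. The highest of the list was Cdc25b, the phosphatase that activates Cdk1, at 1.73 and 2.55 (2.14 ± 0.23, limma adjusted p = 0.0740; separate-channel adjusted p = 0.0221). Stmn1, which encodes the microtubule-destabilising protein stathmin, stood at 1.00 ± 0.07 and the tubulin gene Tubb5 at 0.74 ± 0.12, but with processed signals they gave 0.61 and 0.37, and the order of genes below Cdc25b was a different one. Mad1l1, which encodes the kinetochore anchor of Mad2, was the lowest, at -0.50 on each array (limma adjusted p = 0.0830; separate-channel adjusted p = 0.0477).

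By sublist, further cytokinesis genes had a median of 0.40 (5 of 8 higher on both arrays), and further kinesins and spindle genes 0.38 (16 of 19). Genes of entry into mitosis (12 of 19) had a median of 0.32. The other condensin subunits (4 of 4) had 0.28, and kinetochore and centromere genes (27 of 40) 0.27. Subunits and regulators of the anaphase-promoting complex, which are needed outside mitosis too, had a median of 0.10 (8 of 15), and cohesin genes 0.04 (6 of 13). Within the cohesin list Cdca5, which encodes sororin, stood highest at 0.68 ± 0.07, and Wapl, the factor that releases cohesin, lowest at -0.41 ± 0.07. Ube2s, the other conjugating enzyme of the anaphase-promoting complex, gave 0.10 and 1.26, so the arrays did not give one value.

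Several marker lists of other cells read higher in the deficient samples as well. In a list of 11 genes of double-negative, immature single-positive and early cycling thymocytes, 10 were higher on both arrays with a median of 0.49, and their summed processed signals were 18645 and 17294.5 in deficient cells and 12378 and 9876 in control cells. Macrophage genes were higher in 6 of 8, with sums of 34132 and 33162 against 30039.8 and 12089.9, and stromal or endothelial genes in 6 of 6 tested of 7, with sums of 6848 and 3762 against 3869.9 and 960.1. NK genes were higher in 3 of 4 tested of 5, with sums of 2612 and 3598 against 691 and 528, and the 1 gamma delta T gene tested of 4 listed was higher too. Erythroid genes (2 tested of 5) went opposite ways, with sums of 24441 and 43484 against 39759 and 9966, and B cell (4 of 5 tested) and epithelial (4 of 5 tested) lists had 0 genes higher and 2 lower each. Lyz2 made most of the macrophage sums, at 25054 and 28033 against 23207 and 8756. Hba-a1 likewise made most of the erythroid sums, at 23196 and 41234 against 38107 and 9457. The brightest gene of the double-negative list was Slc3a2, at 8607 and 8980 against 6716 and 5798. No dendritic cell gene of 4 passed the filter. Of the DP markers, 3 were higher and 7 lower on both arrays, with sums of 270036 and 234717 against 257865 and 225278. Dntt, one of the higher genes, held a large part of these sums, at 101833 and 87490 against 45474 and 44308. The higher DP sums of the deficient cells thus do not reflect the 7 lower genes. The part of other cells in the ratios of the mitosis genes was not tested.

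**Figure D5:**
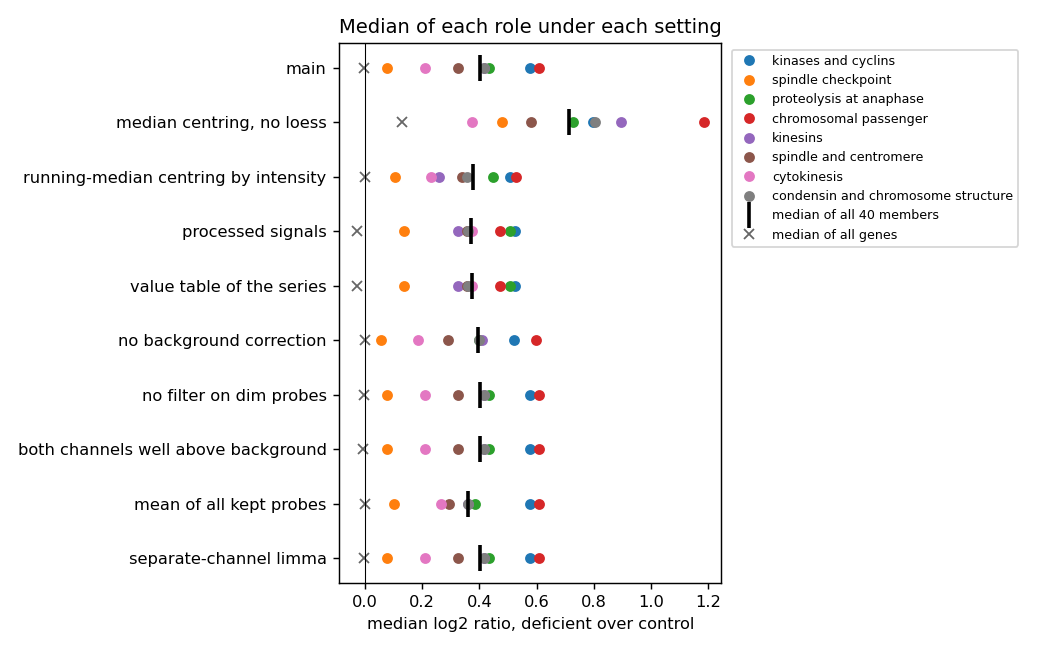
Median log2 ratio of each role (coloured points), of all 40 members (bar) and of all genes (cross) under each way of processing (vertical axis). The members' median lies between 0.36 and 0.40 except with median centring, where it is 0.71 with all genes at 0.13; spindle checkpoint genes have the lowest median except in that setting, where the cytokinesis genes do.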

How the data were processed

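Per the labels' protocols, RNA was amplified by an Agilent linear method and given its dye with a ULS kit of Kreatech. Spots were read by the authors in Agilent Feature Extraction 9.5.3.1, per the submitters' processing notes. The deposited mean and local background signals are scanner intensity without correction, per the file headers, and the deposited processed signals are intensity corrected for background, spatial trend and dye. The deposited log10 ratio is that of processed Cy5 over Cy3, and the deposited value table equals it within 0.005 at every spot.

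Here, mean signals went through normexp (offset 50) and a loess fit per array that gave no weight to controls or to outlier spots (108 and 116), using limma 3.58.1 with statmod 1.5.0 under R 4.3.3. A probe's spots were averaged. A probe stayed in (21539 of 41174) where 1 channel was well above background on both arrays, and the brightest such probe stood for each gene. Probe names came from the array files, updated by accession through the RefSeq table. Limma's moderated test of the mean ratio against 0 (1 residual degree of freedom) was adjusted over all 14923 genes by Benjamini-Hochberg, at a threshold of 0.05. It was tested on simulated data. The precision is limited by the 2 arrays, and p-values measure only the spread between these samples. Members and lists were chosen with earlier results of these data known. Signals of both channels are given for the 2 highest and the 2 lowest members of each role (every member of roles of 4 or fewer), and other genes are given by ratio. Promoters are those of RefSeq on GRCm38.p6, which was not mixed with the mm8 probe coordinates. Alternatives tried were median centring, centring by brightness, processed signals, the value table, no background correction, other filters on dim probes, the mean of all kept probes, the separate-channel fit and each array alone.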

Additional observations from a re-analysis of the deposited data

How the results depend on the processing

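The count of 0 genes called by limma became 989 with median centring (884 higher and 105 lower), 131 with processed signals, 28 with the value table and 1281 in the separate-channel fit (709 higher and 572 lower). Members called were 16 with median centring and 11 in the separate-channel fit, and further mitosis genes called were 24 and 17. With median centring the medians were 0.71 for the members and 0.49 for the further genes, of which 4 were lower on both arrays. No member was lower on both arrays (0) with median centring, processed signals or the value table. With a single array, from 3 to 7 members and from 20 to 33 further genes were lower, and no test was possible. Signs turned in Bub3 (0.48 with median centring, 0.035 with the mean of its probes and 0.12 with the 3′ probe), Ube2c (0.32) and Kif11 (0.15, both with median centring). The test of ratios already pairs the samples of each array, and the separate-channel fit keeps the array as a block. The other alternatives, which were no background correction, other filters on dim probes and centring by brightness, kept the count of members called at 0. The number of arrays limits every value, and SE was largest in Kifc1 (0.70), Smc2 (0.32) and Top2a (0.21).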
